A study of Mus musculus with 2 samples.

Results

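The genes described are 10 of the 32285 listed in the files, chosen by symbol: 9 cathepsins and 1 inhibitor of cathepsins. They are the cathepsins Ctsb, Ctsl, Ctss, Ctsk, Ctsc, Ctsh, Ctsz, Ctsd and Ctsa, and Cst3, which encodes cystatin C and is not a cathepsin. All 10 symbols were found, and each occurred once. The study implanted 4T1 cells, an established mouse mammary carcinoma line, with Matrigel in the mammary fat pad of mice. Treated mice were given β-elemene, a plant sesquiterpene, into the peritoneum every day at 30 mg/kg, and vehicle mice were given normal saline at the same volume. At 18 days of treatment the tumours were dissociated, red blood cells were lysed and transcript 3′ ends of single cells were sequenced (10x Chromium), with 1 library per group. The strain and age of the mice and the number of mice behind a library are not stated, and the injected tumour is of a single line in both groups.

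Cathepsins are proteases that work mostly in the acidic lysosome, where they degrade proteins delivered by endocytosis, phagocytosis and autophagy. Phagocytes use them to process antigen, and both macrophages and fibroblasts can release some of them to cut the matrix of a tumour. Cystatin C is a secreted inhibitor of the cysteine cathepsins.

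The β-elemene library held 11539 barcodes and 157282740 unique molecular identifier counts (UMIs), and the vehicle library 11324 barcodes and 168750895 UMIs. After filtering and removal of called doublets, 10546 cells remained in β-elemene and 10465 in vehicle, and 37 barcode sequences occurred in both libraries. Cells were clustered with the 10 genes, other cathepsins and other cystatins left out of the clustering, and clusters were named by markers of each cell type. Each class is a set of "macrophage-like", "fibroblast-like" and similar clusters and is written without that suffix. With β-elemene and vehicle in that order, the classes held 3156 and 3021 macrophages, 339 and 219 monocytes, 114 and 113 dendritic cells and 1777 and 1124 neutrophils. They further held 641 and 588 T and NK cells, 3320 and 4110 malignant cells, 644 and 653 fibroblasts, and 195 and 197 endothelial cells. Levels are in CPM, the usual depth-scaled count, here the UMIs of a gene relative to all UMIs of the class in that library, and parentheses give exact 95% intervals that cover counting error only. With 1 library per group there is no test of treatment against the spread between mice, and every ratio compares these libraries. Levels of different genes are not ranked against each other, because 3′ UMIs depend on the transcript.

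Of the 10 genes, 7 had their highest level in macrophages in both libraries: Ctsb, Ctss, Ctsc, Ctsh, Ctsz, Ctsd and Ctsa. The other 3 were Ctsl, highest in malignant cells, Ctsk, highest in fibroblasts, and Cst3, highest in dendritic cells. The class of the highest level was the same in both libraries for 10 of 10 genes. A gene was called where the β-elemene to vehicle ratio was at least 1.5-fold either way, its interval excluded 1 and it had at least 100 UMIs over both libraries. In macrophages 0 of 10 genes were called, where 2.42% of all 12051 genes with enough UMIs were called. In malignant cells 0 of 10 were called (6.46% of all genes). In monocytes 0 of 9 were called (4.24% of all genes) and in neutrophils 0 of 9 (4.03%). In fibroblasts 1 of 10 was called, Ctss, with a lower level in β-elemene (4.33% of all genes). In T and NK cells 1 of 9 was called, Cst3, with a higher level in β-elemene (4.45%). In dendritic cells 2 of 9 were called, Ctsl lower and Cst3 higher in β-elemene (7.8%). In endothelial cells 2 of 9 were called, Ctss and Ctsc, both lower in β-elemene (4.83%). The median log2 ratio over the measured genes was 0.07 in macrophages, against -0.02 over all genes tested, and -0.20 in dendritic cells, against -0.00 over all genes. In the other 6 classes the median of these genes lay between -0.04 and 0.11. At the lower threshold of a 25% difference, the count was 1 of 10 in macrophages (9.15% of all genes), 0 of 9 in monocytes (13.9%), 3 of 9 in dendritic cells (16.8%) and 0 of 9 in neutrophils (13.8%). It was 2 of 9 in T and NK cells (14.6%), 0 of 10 in malignant cells (16.2%), 3 of 10 in fibroblasts (16%) and 4 of 9 in endothelial cells (14.2%).

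**Figure D1:**
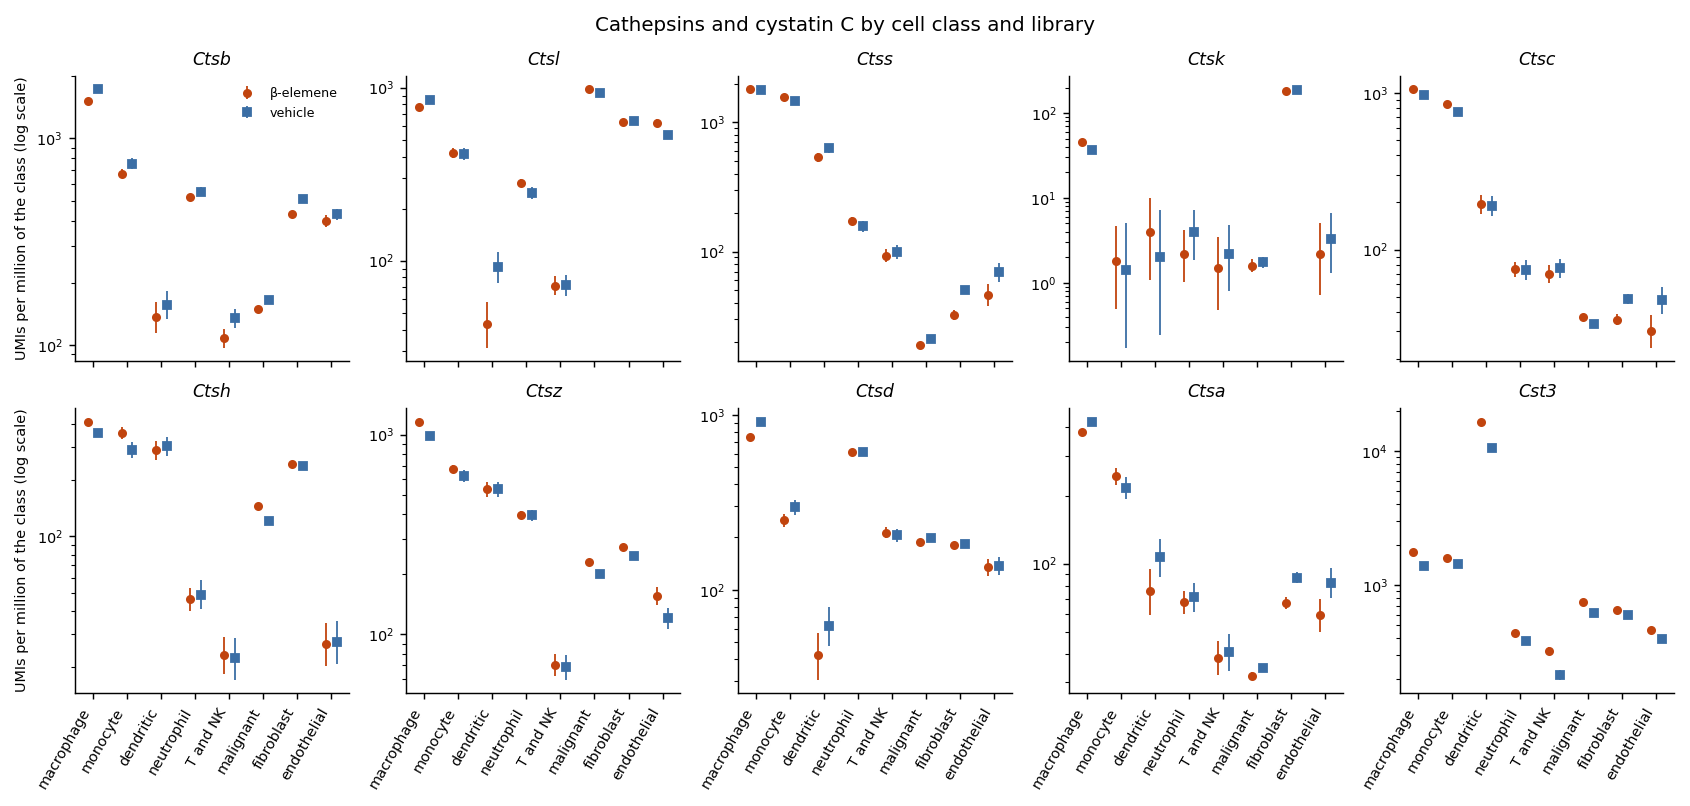
Level of each gene in each cell class, in CPM on a log axis, with β-elemene as circles left of vehicle as squares and exact 95% Poisson intervals as bars. Differences between classes reach 132-fold for Ctsk in vehicle, where the lowest class, monocytes, had 1.41 CPM from only 2 UMIs. Most paired points of the 2 libraries lie close together.

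**Figure D2:**
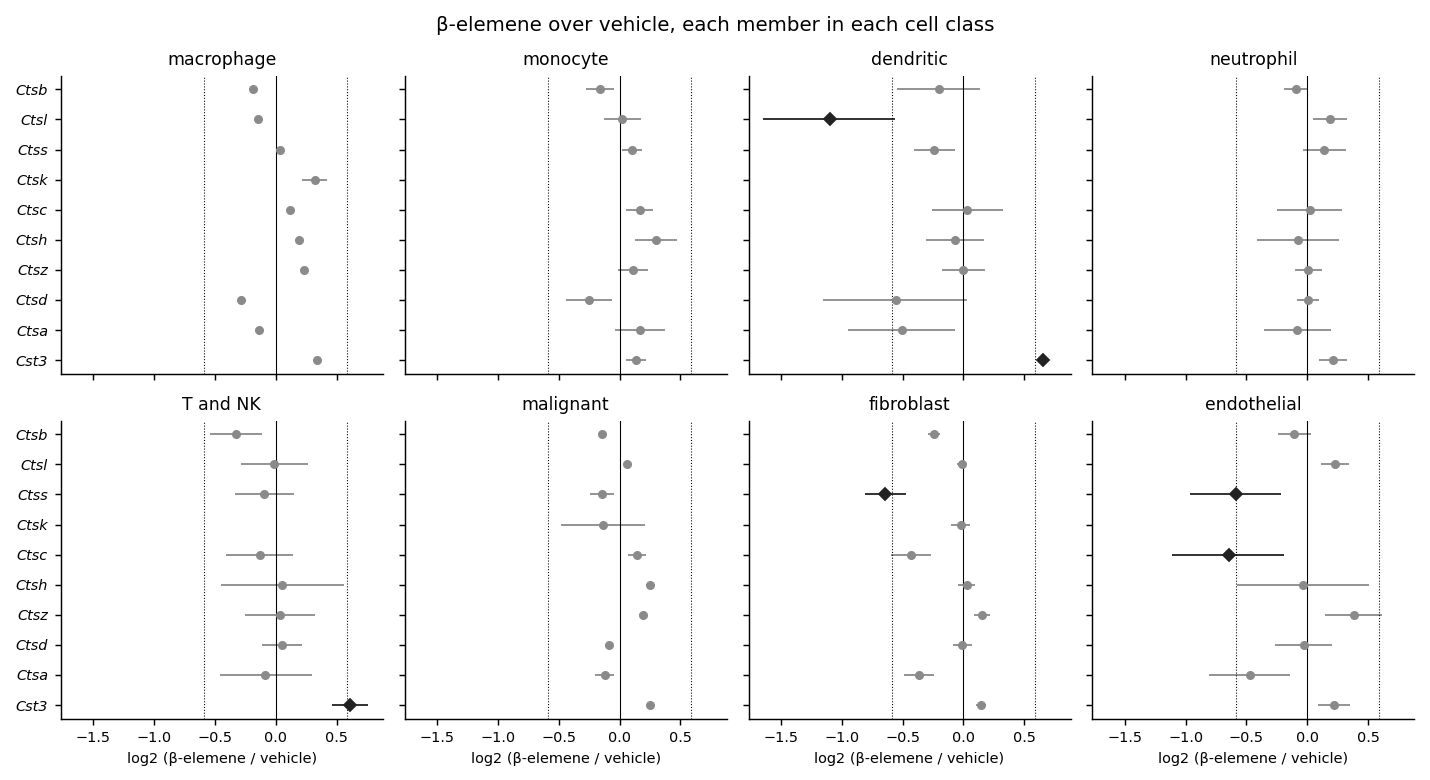
Log2 ratio of β-elemene over vehicle for each gene in each cell class, with exact 95% intervals of counting error, a solid line at equal levels and dotted lines at 1.5-fold. Black diamonds are the 6 called ratios and grey circles the others, and Ctsk is left out of the 5 classes with under 100 UMIs.

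Ctsb (chr14:63122462-63145923, plus strand; coordinates are GRCm38, gene annotation of GENCODE vM21) encodes cathepsin B, a broad lysosomal cysteine protease. It stood at 1520 CPM in β-elemene macrophages and 1725 CPM in vehicle macrophages, 2.25-fold and 2.29-fold above monocytes, the next class. The order of all 8 classes was the same in both libraries, with T and NK cells last at 107 CPM in β-elemene and 135 CPM in vehicle. Ctsb was lower in β-elemene in 8 of 8 classes, and the interval excluded 1 in 5 of them. The ratio was 0.881 in macrophages (0.871 to 0.891), 0.847 in fibroblasts (0.819 to 0.876) and 0.904 in malignant cells (0.882 to 0.926). Of the 2204 genes measured in all 8 classes, 7.99% were below 1 in all 8.

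Ctsl (chr13:64359337-64370890, minus strand) encodes cathepsin L, a cysteine endopeptidase of lysosomes that is also secreted as a precursor by many tumour cells. Malignant cells had 978 CPM in β-elemene and 936 CPM in vehicle, and macrophages had 772 and 852 CPM. Fibroblasts followed with 634 CPM in β-elemene and 640 CPM in vehicle, and endothelial cells with 623 and 533 CPM. Malignant cells exceeded macrophages 1.27-fold in β-elemene and 1.10-fold in vehicle, so the classes at the top of this order lay close together. Dendritic cells had 43.1 CPM in β-elemene and 91.9 CPM in vehicle, from 44 and 92 UMIs, a ratio of 0.469 (0.3198 to 0.679). It was below 1 in all 3 dendritic clusters, and the interval excluded 1 only in the Cd209a cluster, with 53.4 CPM in β-elemene and 132 CPM in vehicle.

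Ctss and Ctsk are neighbours on chromosome 3, with 17423 bases between the end of Ctsk and the start of Ctss on the same strand, and their class patterns were unlike. Ctss (chr3:95526786-95556403) encodes cathepsin S, the protease that trims the invariant chain of MHC class II in antigen-presenting cells. It stood at 1808 CPM in β-elemene macrophages and 1769 CPM in vehicle macrophages, and at 1569 and 1462 CPM in monocytes. Dendritic cells had 536 CPM in β-elemene and 632 CPM in vehicle, and neutrophils 173 and 157 CPM. The macrophage level was 95.7 times that of malignant cells in β-elemene and 84.6 times in vehicle. Ctsk (chr3:95499256-95509362) encodes cathepsin K, a collagen-cutting protease best known from osteoclasts. Its highest level was in fibroblasts, with 183 CPM in β-elemene and 186 CPM in vehicle, a ratio of 0.984 (0.933 to 1.04). The share of fibroblasts with a Ctsk UMI was 85.1% in β-elemene and 81.2% in vehicle, and 15.02% and 18.17% after thinning each cell to 1000 UMIs. In T and NK cells, which should lack the gene, the share without thinning was 0.780% in β-elemene and 1.02% in vehicle. Their depth was lower, with a median of 4430 and 4058.5 UMIs, against 21832.5 and 20917 in fibroblasts. Pericytes, with 46 cells in β-elemene and 45 in vehicle, had 59.1 and 79.0 Ctsk CPM.

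The promoters of the neighbouring pair are shown because the files place the genes side by side while the classes that hold them differ. They are RefSeq sequences of GRCm38.p6, 250 bases before to 50 bases after the RefSeq gene start. That start can differ from the GENCODE start of the gene spans given here. Of the 10 genes, 8 have such a sequence, and Ctsb and Ctsh do not. Letters searched on both strands were the E-box CACGTG, the M-box core CATGTG, the PU.1-type GAGGAAGT, an interferon-factor-type repeat (GAAA, any pair of bases, GAAA) and the AP-1-type TGANTCA, and matches are in capitals. In the Ctss window the GAAA repeat starts 21 bases before the gene start, GAGGAAGT 2 bases before it, and CATGTG 19 bases after it. The Ctsk window holds none of the 5. Of 32851 promoters, 3.44% hold the GAAA repeat, 3.20% GAGGAAGT, 14.2% CATGTG and 7.81% TGANTCA, and a match is a description of the letters only.
Ctss, chr3:95526536-95526835, plus strand: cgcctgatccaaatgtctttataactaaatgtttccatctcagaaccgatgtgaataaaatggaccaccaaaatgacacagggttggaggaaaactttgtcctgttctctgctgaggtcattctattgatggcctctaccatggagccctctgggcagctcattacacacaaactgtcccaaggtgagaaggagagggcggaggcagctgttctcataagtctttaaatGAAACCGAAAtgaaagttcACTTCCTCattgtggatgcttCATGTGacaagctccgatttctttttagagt
Ctsk, chr3:95498960-95499259, plus strand: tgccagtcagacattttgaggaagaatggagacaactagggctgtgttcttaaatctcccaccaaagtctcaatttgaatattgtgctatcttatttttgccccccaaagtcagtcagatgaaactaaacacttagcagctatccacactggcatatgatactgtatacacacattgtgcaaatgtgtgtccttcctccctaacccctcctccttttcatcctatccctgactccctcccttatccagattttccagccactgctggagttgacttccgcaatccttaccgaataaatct

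Among macrophages, Ctsk came mostly from a very small group of cells. The class held 1664 Ctsk UMIs in β-elemene and 1381 in vehicle, and sub-cluster 11 held 91.3% and 74.5% of them in 11 and 13 cells. Among its leading genes were Ctsk, itself left out of the clustering, and Slc9b2, Mmp9, Acp5 and Atp6v0d2, which are known from osteoclasts. A list of 8 osteoclast-type genes without Ctsk summed to 13496 CPM there, against at most 470 CPM in any other macrophage sub-cluster. Acp5, which encodes tartrate-resistant acid phosphatase, was at 9090 CPM in the β-elemene cells of the sub-cluster and 5110 CPM in the vehicle cells. C1qa, a complement gene of tissue macrophages, was at 317 and 349 CPM, against 3729 and 3163 CPM in the other macrophages. Single cells carried the signal: 8 cells of β-elemene had 83 to 317 Ctsk UMIs, with a median of 162.5, and 7 cells of vehicle had 38 to 298, with a median of 126. The highest C1qa count among these cells was 25 UMIs in β-elemene and 3 in vehicle. Their median total was 16984 UMIs in β-elemene and 18316 in vehicle, against 11025 and 12309.5 for the other macrophages. The rest of sub-cluster 11 had 0 Ctsk UMIs, in 3 cells of β-elemene and 5 of vehicle, or 1, in 1 cell of vehicle. The CPM values of the sub-cluster include those cells. The median doublet score of the sub-cluster was 0.140 in β-elemene and 0.101 in vehicle, against 0.0337 and 0.0363 in the other macrophages of each library, and the part of doublets in these values was not tested. Within the sub-cluster Ctss was at 185 CPM in β-elemene and 276 CPM in vehicle, far under the class level, while Cst3 was at 2914 and 1548 CPM.

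The Ctsk ratio of the class turned on these cells. Over the class Ctsk stood at 45.2 CPM in β-elemene and 36.2 CPM in vehicle, a ratio of 1.249 (1.16 to 1.34). Without sub-cluster 11 it stood at 3.93 and 9.29 CPM, a ratio of 0.424 (0.347 to 0.516), from 144 and 352 UMIs. A part of that lower value came from few cells. Of the remaining macrophages 1 in β-elemene and 7 in vehicle had 10 to 37 Ctsk UMIs, and these held 22 of the 144 and 144 of the 352 UMIs. All 8 lay in the Mmp12 sub-cluster described below, with 7 to 107 C1qa UMIs and at most 3 UMIs of the 3 fibrillar collagen genes. Most other Ctsk-positive macrophages had 1 Ctsk UMI, 101 cells in β-elemene and 150 in vehicle, 1 of the latter in sub-cluster 11. A further 7 cells in β-elemene and 18 in vehicle had 2 to 9, with 21 and 59 UMIs in all.

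**Figure D3:**
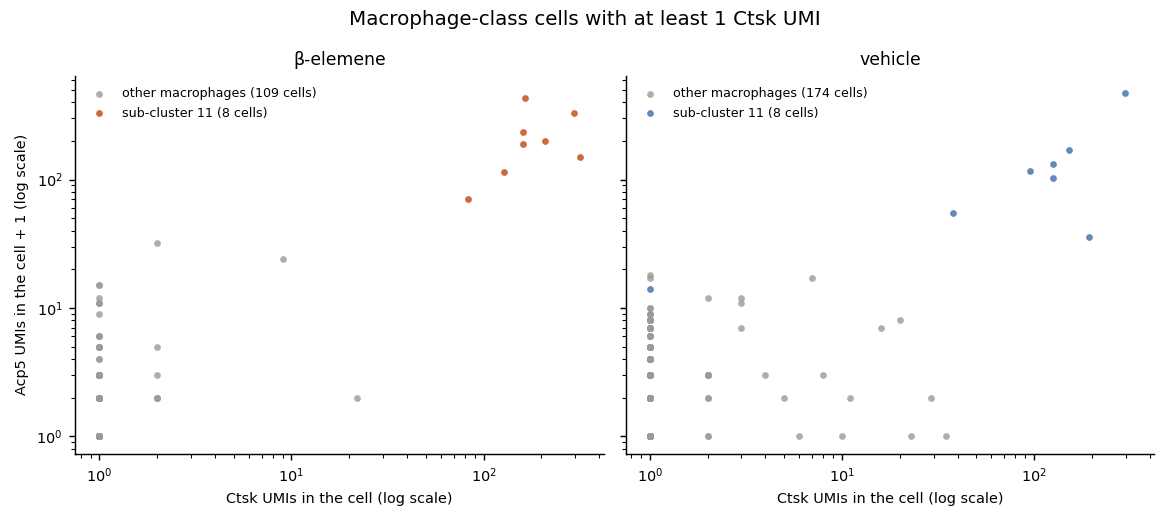
Each point is a macrophage-class cell with at least 1 Ctsk UMI, with its Ctsk UMIs on the x axis and its Acp5 UMIs plus 1 on the y axis, both on log scales, β-elemene left and vehicle right. The coloured cells of sub-cluster 11 with 38 or more Ctsk UMIs, 8 in β-elemene and 7 in vehicle, had at least 69 and 35 Acp5 UMIs, and 1 vehicle cell of the sub-cluster lies at 1 Ctsk UMI.

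In malignant cells, fibroblasts and endothelial cells, low Ctss stood in about the ratio to complement transcripts that macrophages had, and in T and NK cells it did not. Ctss was at 18.9 CPM in β-elemene and 20.9 CPM in vehicle in malignant cells, 32.1 and 50.1 CPM in fibroblasts, and 46.0 and 69.2 CPM in endothelial cells. For every UMI of C1qa, C1qb and C1qc together, macrophages held 0.242 Ctss UMIs in β-elemene and 0.282 in vehicle. The same quotient was 0.235 and 0.271 in malignant cells, 0.228 and 0.309 in fibroblasts, and 0.219 and 0.314 in endothelial cells. In T and NK cells, with 93.2 Ctss CPM in β-elemene and 99.4 CPM in vehicle, it was 0.692 and 0.677, in neutrophils 0.893 and 0.684, and in monocytes 5.90 and 5.61. The part of macrophage RNA in these low Ctss levels was not tested. The 2 called ratios of Ctss were 0.641 in fibroblasts (0.570 to 0.721) and 0.665 in endothelial cells (0.513 to 0.859). C1q transcripts in fibroblasts were at 141 CPM in β-elemene and 162 CPM in vehicle, a ratio of 0.870 (0.819 to 0.923), and in endothelial cells at 210.0 and 221 CPM, a ratio of 0.952 (0.836 to 1.08). Fibroblast sub-cluster 8, with 36 cells in each library and macrophage and neutrophil genes among its leading genes, had 1150 CPM of C1q in β-elemene and 1201 CPM in vehicle, with Ctss at 288 CPM in β-elemene and 392 CPM in vehicle. Without it fibroblast Ctss was at 14.01 CPM in β-elemene and 22.6 CPM in vehicle, a ratio of 0.620 (0.515 to 0.744), while C1q was at 69.4 and 78.4 CPM, a ratio of 0.885 (0.810 to 0.967).

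**Figure D4:**
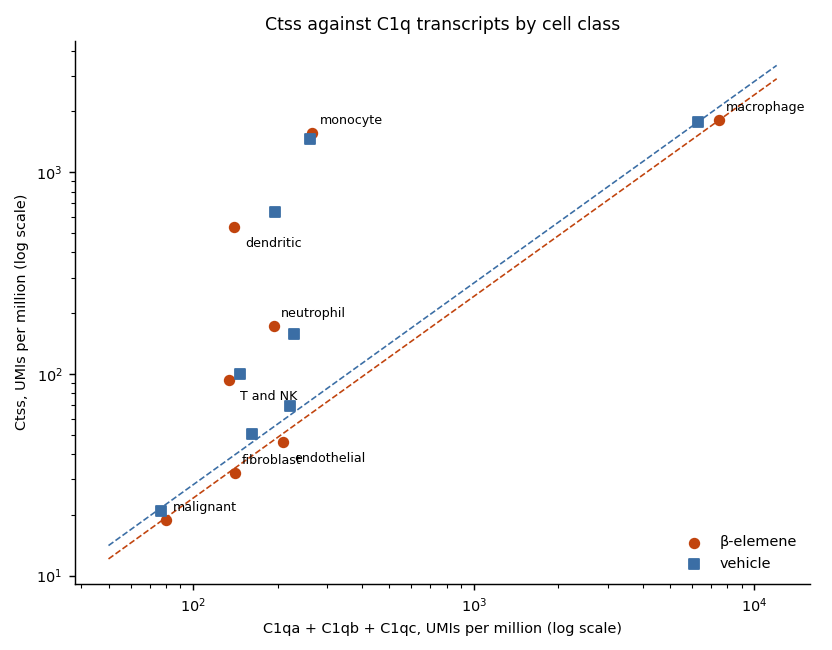
Ctss level against the summed level of C1qa, C1qb and C1qc for the 8 cell classes, both in CPM on log axes, with β-elemene as circles and vehicle as squares. Dashed lines carry each library's own macrophage quotient of 0.242 or 0.282 across the plot, and malignant cells, fibroblasts and endothelial cells lie near them while T and NK cells, neutrophils, dendritic cells and monocytes lie above.

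The exopeptidases Ctsc, Ctsh and Ctsz were all highest in macrophages and a little higher there in β-elemene. Ctsc (chr7:88278085-88310888, plus strand) encodes cathepsin C, the dipeptidyl peptidase that activates granule serine proteases. It stood at 1052 CPM in β-elemene macrophages and 971 CPM in vehicle macrophages, a ratio of 1.08 (1.07 to 1.10). Fibroblasts had 35.8 CPM in β-elemene and 48.1 CPM in vehicle, and endothelial cells 30.3 and 47.4 CPM, a ratio of 0.638 (0.463 to 0.875). Those endothelial values come from 69 and 102 UMIs, and with Ctss they are the only called ratios of the class. As for Ctss, the part of macrophage RNA in these low Ctsc levels was not tested. Ctsh (chr9:90054152-90076089, plus strand) encodes cathepsin H, an aminopeptidase. It stood at 408 CPM in β-elemene macrophages and 356 CPM in vehicle macrophages, a ratio of 1.14 (1.12 to 1.17). Fibroblasts were at 243 and 238 CPM. The ratio was 1.23 in monocytes (1.09 to 1.39) and 1.19 in malignant cells (1.16 to 1.22), where the levels were 145 CPM in β-elemene and 122 CPM in vehicle. Ctsz (chr2:174427493-174439039, minus strand) encodes cathepsin Z, a carboxypeptidase. It stood at 1161 CPM in β-elemene macrophages and 986 CPM in vehicle macrophages, a ratio of 1.18 (1.16 to 1.19). Its order of classes was the same in both libraries, and no neighbours in that order had overlapping pairs of values. The ratio was above 1 in 7 of 8 classes, reached 1.30 in endothelial cells (1.11 to 1.53) and was 0.999 in dendritic cells.

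Ctsd and Ctsa are the cathepsins here that are not cysteine proteases. Ctsd (chr7:142375911-142388038, minus strand) encodes cathepsin D, an aspartic protease. It stood at 751 CPM in β-elemene macrophages and 913 CPM in vehicle macrophages, a ratio of 0.822 (0.809 to 0.835), which is the lowest of the 10 in that class. Neutrophils came next with 611 CPM in β-elemene and 609 CPM in vehicle, a ratio of 1.00 (0.942 to 1.07). Dendritic cells were last of 8 classes in both libraries, with 42.1 CPM in β-elemene and 61.9 CPM in vehicle. Ctsa (chr2:164832873-164841032, plus strand) encodes cathepsin A, a serine carboxypeptidase that also protects lysosomal sialidase and β-galactosidase. It stood at 383 CPM in β-elemene macrophages and 421 CPM in vehicle macrophages, a ratio of 0.909 (0.888 to 0.929). In fibroblasts it was at 67.0 CPM in β-elemene and 86.4 CPM in vehicle, a ratio of 0.775 (0.713 to 0.843), and in endothelial cells at 59.2 and 82.2 CPM, a ratio of 0.720 (0.571 to 0.906).

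The promoters of Ctsd and Ctsa are shown for their E-boxes, CACGTG, the letters bound by the lysosomal transcription factors TFEB, TFE3 and MITF. Of 32851 RefSeq promoters of the same length, 7.15% hold CACGTG. In Ctsd it starts 245 and 98 bases before the RefSeq start, which lies inside the GENCODE span of the gene. Of these matches, the first lies before the GENCODE start and the second after it. In the window of the second of 2 RefSeq Ctsa starts CACGTG begins 12 bases before and 5 bases after that start, with CATGTG 21 bases after it. This second Ctsa window lies inside the GENCODE span of Ctsa. The window of the first Ctsa start holds none of the 5 motifs. Ctsl is the only other member window with CACGTG, 236 bases before its RefSeq start, and the Ctsz, Cst3, Ctsc, Ctss and Ctsk windows hold none. The whole Ctsl window, chr13:64370471-64370770, lies inside the GENCODE span of the gene, so its CACGTG comes after the GENCODE start.
Ctsd, chr7:142387778-142388077, minus strand: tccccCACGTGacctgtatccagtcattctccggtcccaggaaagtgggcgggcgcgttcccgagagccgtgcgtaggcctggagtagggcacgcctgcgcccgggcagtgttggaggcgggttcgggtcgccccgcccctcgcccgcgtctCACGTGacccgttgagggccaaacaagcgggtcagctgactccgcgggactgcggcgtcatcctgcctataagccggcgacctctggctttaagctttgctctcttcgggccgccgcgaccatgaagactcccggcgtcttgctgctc
Ctsa, chr2:164833523-164833822, plus strand: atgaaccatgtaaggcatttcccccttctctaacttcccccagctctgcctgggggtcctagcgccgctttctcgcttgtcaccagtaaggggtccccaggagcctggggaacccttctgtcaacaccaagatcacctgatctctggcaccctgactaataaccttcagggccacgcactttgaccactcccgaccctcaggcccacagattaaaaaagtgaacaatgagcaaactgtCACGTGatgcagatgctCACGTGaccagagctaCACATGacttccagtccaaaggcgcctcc

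Macrophage sub-clusters differed in their cathepsin levels. The class held 7 sub-clusters with at least 100 cells in each library. Sub-cluster 0, led by Cxcl9 and Rsad2 and highest in MHC class II transcripts, held 852 cells in β-elemene and 742 in vehicle. It had 2433 CPM of Ctss in β-elemene and 2437 CPM in vehicle, the highest of the 7 in both libraries. Sub-cluster 1, with Mmp12, Adm and Mmp13 among its leading genes, held 450 and 558 cells, or 14.3% of β-elemene macrophages and 18.5% of vehicle macrophages. It had the highest Ctsd, with 1352 CPM in β-elemene and 1780 CPM in vehicle, the highest Ctsl, with 1199 and 1468 CPM, and the highest Ctsa, with 517 and 608 CPM. Ctsk was also highest there among the 7, with 9.27 CPM in β-elemene and 30.5 CPM in vehicle. Sub-cluster 2, led by Ednrb, Cd163 and Cbr2 and carrying the resident-like markers, held 454 and 449 cells. It had the highest Ctsb, with 3331 CPM in β-elemene and 3807 CPM in vehicle, and the lowest Ctsz of the 7, with 669 and 561 CPM. Sub-cluster 3, with Cxcl3, Inhba and Vcan among its leading genes, held 401 and 406 cells and had the lowest Ctsb of the 7, with 687 CPM in β-elemene and 754 CPM in vehicle.

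The differences between libraries were not of 1 kind in these states. Ctsz was higher in β-elemene in 7 of 7 sub-clusters, with ratios of 1.13 to 1.34 whose intervals all excluded 1. Cst3 was higher in 6 of 7, up to 1.44 in sub-cluster 5, and the exception was sub-cluster 6, whose cells had a median of 1922 UMIs, with 2260 CPM in β-elemene and 2440 CPM in vehicle. Ctsc was higher in 6 of 7, and its ratio in sub-cluster 0 was 0.957 (0.933 to 0.982). Ctsd was lower in β-elemene with an interval excluding 1 in 4 of 7, and its ratio of 0.760 in sub-cluster 1 was the lowest. In sub-cluster 0 Ctsd was at 547 CPM in β-elemene and 544 CPM in vehicle. Ctsb was likewise at 0.780 in sub-cluster 1 and 1.03 in sub-cluster 0. With both libraries weighted to the same mix of the 7 states, the ratio was 0.860 for Ctsd, 0.897 for Ctsb, 0.935 for Ctsl, 1.17 for Ctsz and 1.23 for Cst3. Sub-cluster 6, the shallow one, held 9.25% of β-elemene macrophages and 3.57% of vehicle macrophages.

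**Figure D5:**
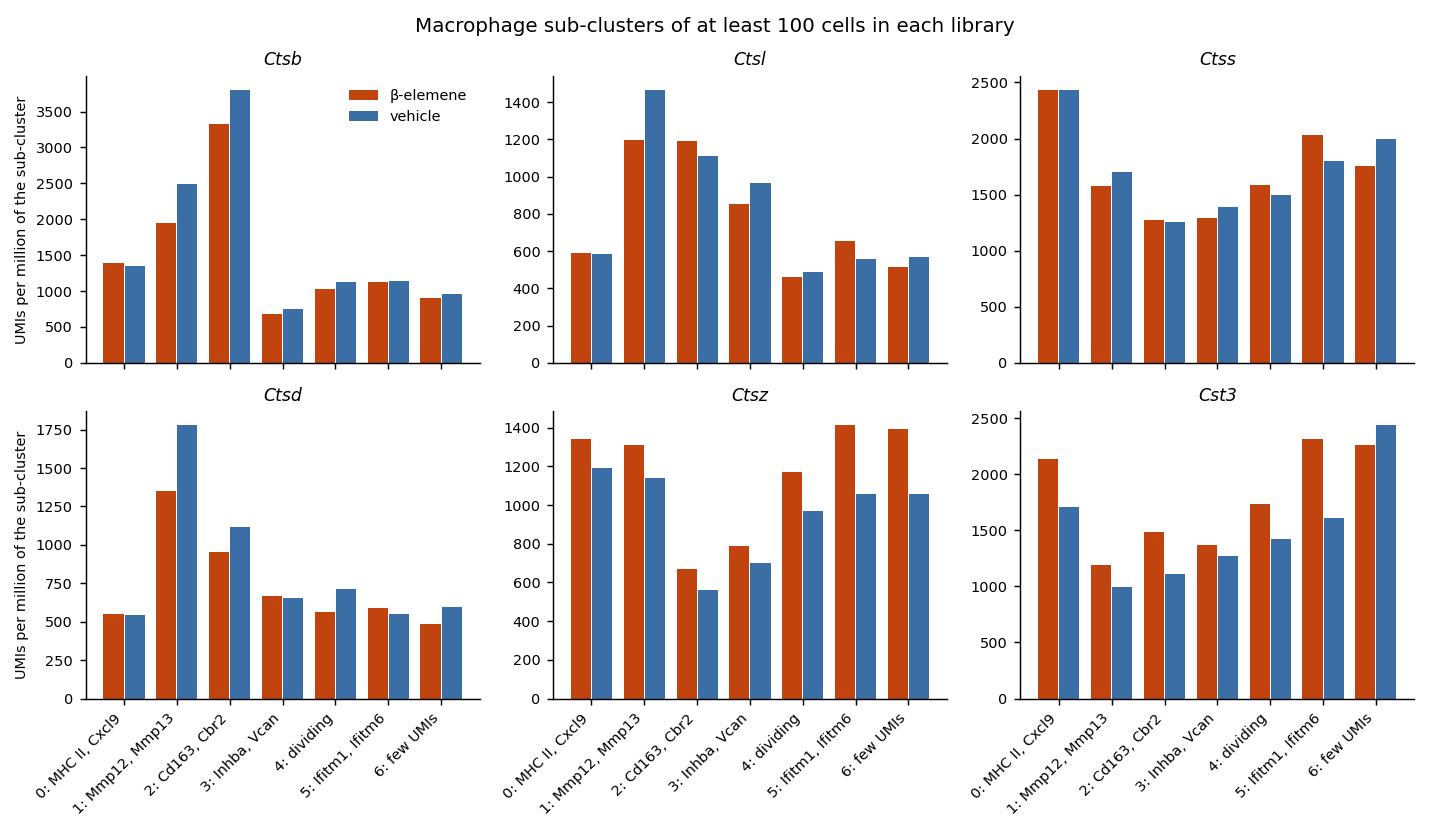
Levels of 6 of the genes in the 7 macrophage sub-clusters with at least 100 cells in each library, in CPM of the sub-cluster, with β-elemene bars left of vehicle bars. Ctsd and Ctsl peak in the Mmp12 sub-cluster, Ctsb in the Cd163 sub-cluster and Ctss in the MHC class II sub-cluster, in both libraries.

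Fibroblast states also differed in Ctsk, 3.03-fold from the pooled lowest to the pooled highest sub-cluster. Its level lay between 66.6 and 282 CPM over 9 sub-clusters in β-elemene and between 98.2 and 237 CPM in vehicle. The lowest value of each library was that of sub-cluster 6, led by Krt19 and Mmp10, and the pooled highest, 251 CPM, that of sub-cluster 4. Sub-clusters 0 and 1, highest in myofibroblast-like markers, had 245 and 179 CPM in β-elemene and 237 and 165 CPM in vehicle. Over both libraries these markers were also at 7232 CPM in sub-cluster 5, 6121 CPM in sub-cluster 6 and 6248 CPM in sub-cluster 8. Sub-cluster 5 had 171 CPM of Ctsk in β-elemene and 234.5 CPM in vehicle. Sub-clusters 2 and 3, with universal-type markers, had 150 and 221 CPM in β-elemene and 172 and 222 CPM in vehicle, so the marker types overlapped. Sub-clusters 7 and 8 also carried malignant-cell and macrophage genes. Pooled Cst3 spanned 388 to 1011 CPM over the 9 sub-clusters and pooled Ctsb 312 to 775 CPM, each highest in sub-cluster 4.

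Cst3 (chr2:148871722-148875692, minus strand) was highest in dendritic cells, with 16569 CPM in β-elemene and 10543 CPM in vehicle, a ratio of 1.57 (1.53 to 1.61). The next class was 9.43 times lower in β-elemene and 7.30 times lower in vehicle. All 3 dendritic clusters had higher Cst3 in β-elemene. The Xcr1 and Clec9a cluster had 24359 CPM in β-elemene and 17374 CPM in vehicle, the Fscn1 and Ccl22 cluster 16977 and 10591 CPM, and the Cd209a cluster 6929 and 5761 CPM. The clusters' shares of the class also differed. The Xcr1 cluster, with the highest Cst3, held 39.5% of dendritic cells in β-elemene and 26.5% in vehicle, and was the largest cluster in β-elemene, while the Cd209a cluster, with 32.5% in β-elemene and 38.9% in vehicle, was the largest in vehicle. With both libraries weighted to the same mix of the 3 clusters, the ratio was 1.40, which is under the 1.5-fold threshold. Each cluster held 30 to 45 cells per library.

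Cst3 was also the one member above 1 with an interval excluding 1 in 8 of 8 classes. Its macrophage level was 1757 CPM in β-elemene and 1387 CPM in vehicle, a ratio of 1.27 (1.252 to 1.28). Malignant cells had 741 CPM in β-elemene and 623 CPM in vehicle, a ratio of 1.19 (1.18 to 1.20). Monocytes had 1586 and 1445 CPM, the smallest ratio at 1.10 (1.04 to 1.16). Of the 2204 genes measured in all 8 classes, 12.7% were above 1 in all 8, counted without any condition on the interval. The share that also met the interval condition was not computed. The called ratio in T and NK cells, with 324 CPM in β-elemene and 212 CPM in vehicle, rested on a single barcode. That β-elemene barcode held 293 of 1087 Cst3 UMIs, with 2 Xcr1, 3 Clec9a and 0 Cd3e UMIs, and the highest T and NK cell of vehicle held 22. Without the top cell of each library the levels were 237 CPM in β-elemene and 205 CPM in vehicle, a ratio of 1.16 (1.04 to 1.29), which is not called.

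The genes most alike in class pattern were found by Pearson's r of log2 levels over the 8 classes, taking the lower r of the 2 libraries, among 5594 genes. The points share libraries and depth, and r is a description. Ctsk was closest to Col14a1, a fibril-associated collagen, at 0.987, then Tafa2 and Olfml3. Ctss was closest to M6pr, the cation-dependent mannose-6-phosphate receptor, at 0.970, then Ucp2 and Ly86. Ctsc was closest to Fcgr1, an Fc receptor, at 0.969, then Apobec1 and Ctss. Ctsa was closest to Slc7a8, an amino acid transporter, at 0.971, then Mfsd1 and Apoe. Ctsh was closest to Asph at 0.955, then Sh3pxd2b and Nrg1, and Cst3 to Erlin1 at 0.948, then Stk38l and Tmem131. Ctsz was closest to Arl8a, a lysosome-positioning GTPase, at 0.941, then Mitf and Nrg1. Ctsl was closest to Mafg at 0.935, then Lhfpl2 and Rassf8. Ctsb was closest to Hebp1 at 0.921, then Tpp1, a lysosomal peptidase, and Gas2l3. Ctsd was closest to Kansl1l at 0.926, then 1700017B05Rik and Arfgef2. Among the members themselves, Ctss and Ctsc were most alike at 0.965, and Ctsd and Cst3 least alike at -0.52.

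Other genes of the lysosome are given by list, and the share of all genes called ran from 2.42% in macrophages to 7.8% in dendritic cells. Of 14 genes of other cathepsins and the related legumain, 4 had enough UMIs in macrophages and 0 of 18 gene and class pairs were called. Lgmn, the asparaginyl endopeptidase that activates several cathepsins, was at 915 CPM in β-elemene macrophages and 907 CPM in vehicle macrophages, and Ctso at 15.6 and 16.2 CPM. Of 18 other cystatins, stefins and serpins in the files, 2 of 31 pairs (6.45%) were called, Stfa2 and Stfa3 in malignant cells. Stfa2 there was at 2.32 CPM in β-elemene and 0.617 CPM in vehicle, and Stfa3 at 0.944 and 0.362 CPM, while neutrophils had 831 and 821 CPM of Stfa2. Neutrophils were 16.9% of cells in β-elemene and 10.7% in vehicle, and their part in the malignant-cell value was not tested. Cstb, the intracellular inhibitor cystatin B, was at 433 CPM in β-elemene macrophages and 421 CPM in vehicle macrophages, and Serpinb6a at 74.0 and 87.6 CPM.

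Of 30 lysosomal hydrolases, 3 of 152 pairs (1.97%) were called. They were Lipa in monocytes, with 37.8 CPM in β-elemene and 24.7 CPM in vehicle, Arsb in dendritic cells, with 102 and 64.9 CPM, and Ppt1 in endothelial cells, with 26.3 and 45.1 CPM. In macrophages 0 of 30 were called, and Man2b1 was at 262 and 258 CPM and Hexa at 234 and 230.3 CPM. Of 20 lysosomal membrane and activator proteins, 3 of 127 pairs (2.36%) were called, all lower in β-elemene. They were Cd63 in dendritic cells, with 149.9 CPM in β-elemene and 252 CPM in vehicle, Cd68 in fibroblasts, and Gm2a in endothelial cells, with 16.7 and 31.6 CPM. Cd68, a macrophage marker, was at 7.18 CPM in β-elemene fibroblasts and 11.5 CPM in vehicle fibroblasts, and at 4.02 and 4.06 CPM without sub-cluster 8. Psap in macrophages was at 1386 and 1361 CPM and Npc2 at 859.7 and 776 CPM. Of 17 subunits of the proton pump that acidifies the lysosome, 2 of 122 pairs (1.64%) were called, Atp6v0d2 in macrophages, with 11.7 CPM in β-elemene and 19.6 CPM in vehicle, and Atp6v0d1 in endothelial cells, with 40.3 and 62.7 CPM. Atp6v0c in macrophages was at 766 and 729.7 CPM and Atp6v0b at 327 and 299 CPM. Of 13 genes for sorting receptors and lysosome transcription factors, 1 of 55 pairs (1.82%) was called, Sort1 in neutrophils, with 14.7 CPM in β-elemene and 23.5 CPM in vehicle. M6pr in macrophages was at 133 and 156 CPM and Mitf at 106 and 105 CPM.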

How the data were processed

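The authors deposited 1 matrix of UMI counts for each library, with no normalization applied. The file headers name Cell Ranger 7.1.0 as the program that wrote them; the submitters' processing notes list STAR beside it and the build mm10. The annotation release, intron counting and the rule for calling cells are not given in the sources used here, and the lowest deposited barcode had 500 UMIs in both libraries.

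Barcodes with at least 200 genes and at most 20% mitochondrial UMIs were kept, and Scrublet, in scanpy 1.11.5, removed 315 doublets (2.90%) from β-elemene and 338 (3.13%) from vehicle. Cells were clustered together from 2000 variable genes, 30 principal components, 15 neighbours and Leiden resolution 1.0, then 0.6 within classes, without the 10 members and 32 related genes, 42 in all. Clusters were named by scaled marker scores, with at least 3 detected markers; classes under 100 cells in a library were not compared, and 268 β-elemene and 292 vehicle cells stayed unnamed. UMIs were summed by class and library (SciPy 1.17.1), and the exact conditional interval of each ratio was checked on simulated counts, where 95.3% to 96.0% of 95% intervals held the true value. No test of treatment was possible with 1 library per group. The named genes were the 10 members, the 3 genes most alike in class pattern to each, and from each list the 2 with the most UMIs in macrophages and every called gene. The members, lists, thresholds and alternatives were chosen with earlier results of these data known. Alternatives were another clustering, filter, scaling, threshold, thinning to 1000 UMIs (847 shallower cells left out) and subtraction of free RNA.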

Additional observations from a re-analysis of the deposited data

How the results depend on the processing

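The 75 member ratios were recomputed under 17 alternatives, which gave 1058 values. Of these, 877 moved by less than the counting interval, 178 moved further and 3 turned the direction of a called ratio, while 97 had another sign in all. The 3 were Cst3 in T and NK cells, with a log2 ratio of -0.0294 when each library was clustered alone and -0.0445 when cells were thinned to 1000 UMIs, and Ctss in endothelial cells, with 0.0231 after that thinning. Cst3 in dendritic cells had a ratio of 1.42 to 1.79 over 12 alternatives, not always past the 1.5-fold threshold, and Ctsl there 0.31 to 0.62. Ctsb stayed below 1 in 15 of 16 alternatives in macrophages, reaching 1.03, and in 13 of 14 in monocytes, reaching 1.01. In endothelial cells it stayed below 1 in 13 of 14, reaching 1.37, and in the other classes in all. Cst3 in monocytes stayed above 1 in 13 of 14, with a lowest ratio of 0.970. The number of called members in macrophages was 0, and 1 at resolution 2.0, with each library clustered alone, with doublets kept and without the osteoclast-type sub-cluster, each time Ctsk, and 1 at the 25% threshold, Cst3. The Ctsk ratio in macrophages was 0.589 at resolution 2.0, 3.49 with each library clustered alone and 0.590 with doublets kept. In dendritic cells the number was 4 at resolution 0.5, 6 with each library clustered alone, 1 after thinning, Cst3, and 1 in the largest sub-cluster, Ctss. With the mean of per-cell fractions it was 2, Ctsl and Ctsd and not Cst3. In T and NK cells it was 0 with each library clustered alone, doublets kept, the stricter cell filter, the mean of per-cell fractions, thinning or without the top cell, 3 with free RNA subtracted and 2 at the 25% threshold. With the largest T and NK sub-cluster alone it was 1, Ctsd and not Cst3. In fibroblasts it was 0 with doublets kept, the mean of per-cell fractions, 10 CPM added, thinning or the largest sub-cluster alone, 2 with free RNA subtracted and 3 at the 25% threshold. In endothelial cells it was 0 with doublets kept, 10 CPM added or the largest sub-cluster alone. It was 1 after thinning, Ctsl and neither Ctss nor Ctsc, and 1 without the top cell, Ctsc. With free RNA subtracted or at the 25% threshold it was 4, Ctss and Ctsc among them. In monocytes it was 1 after thinning, Ctsd. The cause of these shifts was not tested. Of the 10 members, 6 to 8 were highest in macrophages and 9 to 10 had the same highest class in both libraries. With doublets kept, Ctsk was highest in monocytes in both libraries and not in fibroblasts. Cst3 was highest in macrophages in β-elemene and monocytes in vehicle at resolution 2.0, and in macrophages in both libraries with the members kept in the variable genes, and under both settings the dendritic class was too small to compare. Ctsd was highest in neutrophils in both libraries in the largest sub-clusters alone, and in β-elemene with median scaling. The removal of the osteoclast-type or the shallow macrophage sub-cluster and of the fibroblast sub-cluster with macrophage genes was chosen after seeing the data. No paired analysis was possible because each group has a single library. Ctsk had under 100 UMIs in 5 of 8 classes.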
